A study of Homo sapiens with 6 samples.

Results

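Zinc finger genes of chromosome 19 named ZNF with a number were followed in LNCaP prostate cancer clones with and without knockdown of MBD2. A gene was taken as a member when an array feature was annotated to it alone and its RefSeq position was on chromosome 19. This gave 207 genes of the 16704 measured, and for ZNF626, the member with more than 1 feature, the brighter of its 2 features was used. RefSeq lists 241 such genes on chromosome 19, and 34 of them, which had no feature of their own, were not analysed here. A further 20 features name such a gene together with other genes and were left out. The 3 knockdown clones were LNCaP cells stably transfected with a short hairpin RNA against MBD2, and the 3 control clones carried a scrambled hairpin. LNCaP is an androgen-responsive line from prostate cancer. All clones carried the siLentGene-2 vector and were selected for neomycin resistance. Each group consists of clones, so differences particular to 1 clone stay in every value of that clone. Cytoplasmic RNA of each clone was measured on 1 Affymetrix human gene array, and values are log2 expression after the authors' RMA normalization.

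ZNF genes encode proteins with rows of C2H2 zinc fingers that bind DNA. On chromosome 19 they lie in clusters that grew by repeated duplication, and most encode an additional KRAB domain, which recruits the co-repressor TRIM28 and, through it, the histone methyltransferase SETDB1. Many of these proteins bind and silence transposable elements, and several of the genes are known to be silenced by DNA methylation in tumours. MBD2 recognises CpG dinucleotides that carry DNA methylation and, with the NuRD complex, represses genes, so the comparison asks whether such genes change when MBD2 is reduced.

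MBD2 had log2 values of 7.68, 7.84 and 7.81 in knockdown clones 1, 2 and 3, against 8.73, 9.24 and 9.20 in control clones 1, 2 and 3. The groups did not overlap, and its level in the knockdown clones was 41.2% of that in the controls (limma adjusted p = 0.111; exact two-sided permutation p = 0.1, the smallest that 3 against 3 allows). The luminal markers measured (KLK2, KLK3, HOXB13, KRT8 and KRT18) lay between 8.03 and 10.80 in every clone, and the haematopoietic markers PTPRC and CD3E lay between 2.43 and 3.60. KLK3 differed widely within both groups, with 8.66, 10.30 and 10.44 in the knockdown clones and 8.67, 10.12 and 8.48 in the controls. Its log2 fold change was 0.71 (limma adjusted p = 0.762), and the part of this in the ZNF values was not tested. Of the basal and mesenchymal markers, KRT5 lay between 4.41 and 4.75, KRT14 between 5.40 and 5.86, COL1A2 between 5.38 and 5.50, COL1A1 between 7.04 and 7.44 and VIM between 8.29 and 9.75. The knockdown values lay wholly above the controls in KRT5 (adjusted p = 0.582) and wholly below them in KRT18 (adjusted p = 0.548), and the part of these in the ZNF values was not tested. Array medians lay between 6.31 and 6.33. 4 arrays stood apart for the ZNF genes. Control clone 3 had the highest of the 3 control values in 112 of the 207 genes (54.1%, against 30.5% of all genes), and knockdown clone 1 had the lowest knockdown value in 120 (58.0%, against 32.6% of all genes). Knockdown clone 3 had the highest knockdown value in 118 (57.0%, against 25.6% of all genes), and control clone 1 the lowest control value in 115 (55.6%, against 32.1%). The array of knockdown clone 1 also had a narrower spread over genes than the other arrays (SD 2.00 against 2.05 to 2.07), and the part of this in its lower ZNF values was not tested.

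Reducing MBD2 gave no ZNF gene of chromosome 19 a difference past the threshold. Of the 207 genes 0 had an adjusted p under 0.05 in limma, as had 0% of all 16704 genes, and 18 had an unadjusted p under 0.05. Means were lower in the knockdown clones for 112 genes (54.1%, against 51.3% of all genes). The median log2 difference was -0.01 over the ZNF genes and -0.004 over all genes. At an unadjusted p under 0.05, 14 genes were lower (6.76%, against 5.45% of all genes) and 4 were higher (1.93%, against 3.93%). The 3 knockdown values lay wholly below the 3 control values in 18 genes (8.7%, against 8.87% of all genes) and wholly above them in 6 (2.9%, against 6.57%). These shares of lower genes were near those of all genes. Among 205 ZNF genes of other chromosomes 61% had lower means, 5.37% were lower and 0.976% higher at an unadjusted p under 0.05. The split of 14 lower and 4 higher depended on single clones. Without control clone 3 it was 8 and 7, against 4.17% lower and 2.8% higher over all genes in the same fit. Without knockdown clone 1 it was 9 and 26, against 9.12% lower and 6.87% higher over all genes in the same fit. Without control clone 1 it was 19 and 2, against 4.74% and 3.32% of all genes. Without knockdown clone 3 it was 14 and 2, against 3.6% and 2.92% of all genes. After quantile normalization it was 13 and 8, against 4.49% lower and 4.42% higher over all genes. After cyclic loess it was 13 and 7, against 4.67% and 4.42%.

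The lowest p among the ZNF genes belonged to ZNF823 (feature 8034315). Its log2 values were 6.01, 6.14 and 6.23 in the knockdown clones, against 6.42, 6.60 and 6.56 in the controls. All 3 knockdown clones were below all 3 controls, with a log2 fold change of -0.40 (SE 0.09, adjusted p = 0.288). ZNF607 had 5.17, 5.23 and 5.06 in the knockdown clones, against 5.38, 5.59 and 5.94 in the controls. Its groups did not overlap either, and control clone 3 was the farthest from the knockdown values (log2 fold change -0.48, SE 0.14, adjusted p = 0.385). ZNF442 had 4.08, 4.56 and 4.51 in the knockdown clones, against 4.72, 4.89 and 4.93 in the controls, so that knockdown clone 1 was the lowest of all 6 (log2 fold change -0.46, adjusted p = 0.393). ZNF416 had 5.56, 5.82 and 5.93 in the knockdown clones, against 6.05, 6.18 and 6.18 in the controls, with knockdown clone 1 again the lowest (log2 fold change -0.37, adjusted p = 0.393).

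The other 8 genes named for the smallest p among those lower in all knockdown clones were ZNF558, ZNF569, ZNF470, ZNF71, ZNF709, ZNF799, ZNF616 and ZNF699. Their log2 fold changes lay between -0.43 for ZNF699 and -0.23 for ZNF71 and ZNF616. In ZNF71 the knockdown clones lay close together, at 6.21, 6.25 and 6.19, against 6.43, 6.35 and 6.55 in the controls (log2 fold change -0.23, SE 0.08, adjusted p = 0.455). In ZNF699 knockdown clone 1 stood at 3.43 and the others at 4.08 and 4.11, against 4.16, 4.20 and 4.57 in the controls, so that knockdown clone 1 lay far below the other knockdown clones, and without it the log2 fold change was -0.21. ZNF558, ZNF709, ZNF442 and ZNF699 were dim, with means below 4.68, the lowest of the arrays' lower quartiles.

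All 6 genes whose knockdown values lay wholly above the controls differed by little. ZNF233 had 5.49, 5.58 and 5.63 in the knockdown clones, against 5.31, 5.31 and 5.25 in the controls (log2 fold change 0.28, SE 0.08, adjusted p = 0.347). ZNF586 had 6.77, 6.75 and 7.10 in the knockdown clones, against 6.55, 6.59 and 6.60 in the controls (log2 fold change 0.29, adjusted p = 0.475), with knockdown clone 3 the highest, and without that clone the log2 fold change was 0.18. ZNF556 had a log2 fold change of 0.21 at a dim signal, ZNF121 one of 0.21 (0.12 without knockdown clone 3) and ZNF460 one of 0.13. ZNF146, which encodes a protein of zinc fingers with no KRAB domain, had 10.15, 10.05 and 10.13 in the knockdown clones, against 10.00, 10.05 and 10.03 in the controls. The difference was 0.09 (adjusted p = 0.784), and knockdown clone 2 lay almost level with control clone 2. ZNF480 and ZNF358, which with ZNF121, ZNF460 and ZNF146 gave the 5 highest signals, had log2 fold changes of -0.19 and -0.05, and their groups overlapped.

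**Figure D1:**
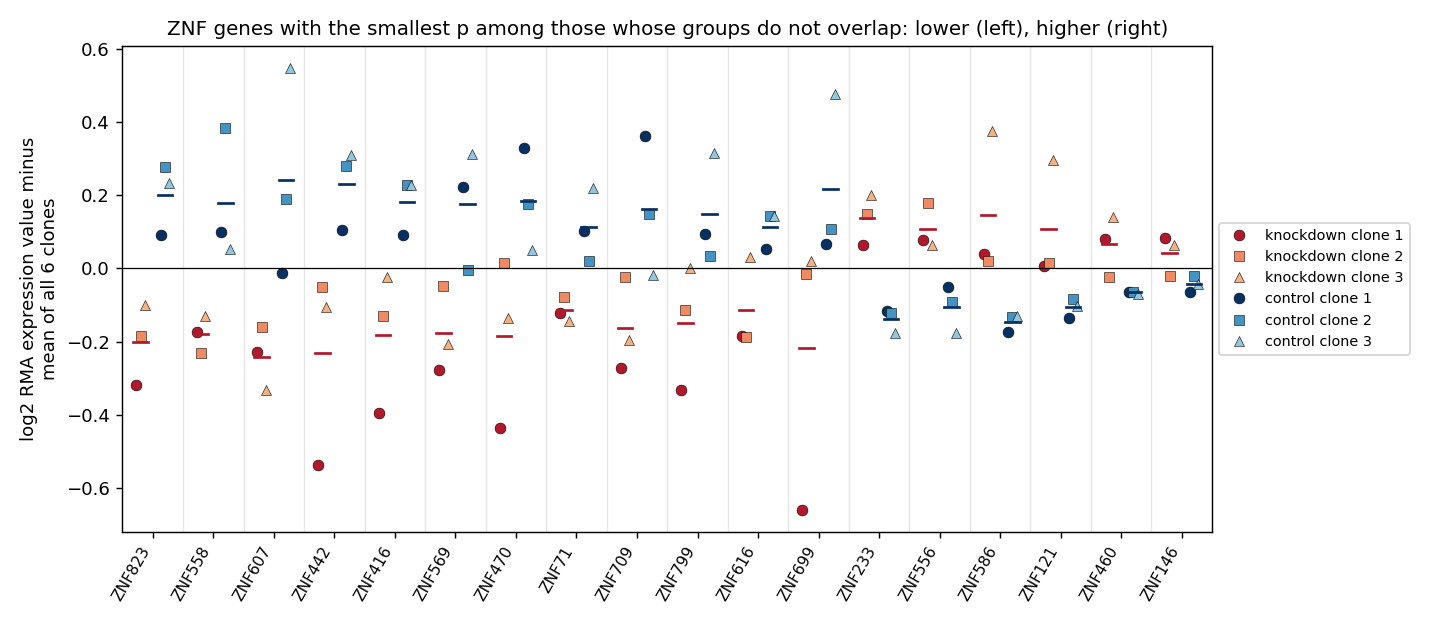
Log2 expression minus the mean of all 6 clones (vertical axis) for the 12 ZNF genes lower and the 6 higher in all knockdown clones, in order of p within each direction. Points are single clones, knockdown left and control right, and bars are means of 3. ZNF823 is the first on the left, with a log2 fold change of -0.40, and the 6 genes on the right differ by 0.09 to 0.29.

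1 member differed at least 2-fold on average (0.483%, against 0.239% of all genes). ZNF682 had 4.09, 5.23 and 5.05 in the knockdown clones, against 3.63, 3.17 and 4.48 in the controls. The groups overlapped, because control clone 3 lay above knockdown clone 1, and the log2 fold change of 1.04 had an SE of 0.39 (adjusted p = 0.471). On the lower side the largest difference was that of ZNF528, with 3.83, 3.92 and 4.15 in the knockdown clones, against 4.06, 4.76 and 5.86 in the controls (log2 fold change -0.93, SE 0.40, adjusted p = 0.531). Here control clone 3 was far above the rest and control clone 1 lay within the knockdown range, and without control clone 3 the log2 fold change was -0.44. ZNF429 (-0.81) and ZNF100 (-0.69) likewise had their highest value in control clone 3, at 6.57 and 5.36, and without that clone their log2 fold changes were -0.36 and -0.36. For ZNF429 it was -0.39 without knockdown clone 1. ZNF682, ZNF528 and ZNF100 were dim, with means below 4.68.

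By position the ZNF genes fell into 17 groups separated by more than 1 Mb between starts, and 10 of these held 5 or more members, 198 in all (GRCh38.p14 coordinates from RefSeq). In the cluster from ZNF653 to ZNF791 (chromosome 19, 11483429 to 12633834), 18 of 20 ZNF means were below control, and the cluster's median log2 fold change was -0.15. It held 5 of the 14 genes with an unadjusted p under 0.05 and a lower mean, which 5.45% of all genes had. Among these 5 were ZNF823, ZNF442, ZNF709 and ZNF799. The 4 other measured genes within the cluster had 2 lower and 2 higher means. Here and below, other genes are all those not named ZNF with a number, so zinc finger genes with different names can be among them. The number with lower means stayed between 15 and 19 of 20 when any 1 clone was left out, and the median moved to -0.08 without knockdown clone 1. The 3 knockdown clones did not contribute alike. The cluster's median relative to the mean of all 6 clones was -0.25 in knockdown clone 1, -0.05 in clone 2 and 0.01 in clone 3, against -0.01, 0.10 and 0.05 in control clones 1, 2 and 3.

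The cluster from ZNF575 to ZNF296 (43530835 to 45076478) leaned the other way, with 18 of 21 genes higher and a median of 0.15. Of the 23 other measured genes in that stretch 18 were higher as well, with a median of 0.12, and of the 1007 other genes of chromosome 19 33.5% were lower, with a median of 0.04. Knockdown clone 3 stood above the other clones there. The ZNF genes' median relative to all 6 clones was -0.01, -0.02 and 0.25 in knockdown clones 1, 2 and 3, against -0.12, -0.04 and -0.02 in the controls. Without knockdown clone 3 the cluster's median was 0.03. ZNF233 and ZNF428 (log2 fold change 0.18) were its members with the smallest p.

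The other 8 clusters had medians between -0.16 and 0.15. From ZNF557 to ZNF846 11 of 13 means were lower (6 to 11 with single clones left out), with a median of -0.05. From ZNF101 to ZNF257 15 of 20 were lower (10 to 17 with single clones left out), with a median of -0.09. From ZNF91 to ZNF254 3 of 5 were lower, with a median of -0.06. The small clusters from ZNF554 to ZNF77 and from ZNF302 to ZNF792, of 5 genes each, had -0.16 and 0.15, with 4 of 5 lower in the first and 4 of 5 higher in the second. The smallest p in these clusters belonged to ZNF556 and ZNF554 (log2 fold changes 0.21 and -0.16) and to ZNF302 and ZNF30 (0.18 and 0.15). Without control clone 3 the first cluster's median was -0.07, and without knockdown clone 3 the second's was -0.02. In the cluster from ZNF565 to ZNF573, which holds ZNF607 and ZNF569, the median was -0.12, and dropping knockdown clone 1 gave 0.01, dropping control clone 1 -0.21. The cluster from ZNF175 to ZNF331, of 35 genes, had -0.06, with 0.05 without control clone 3 and -0.15 without control clone 1. In the largest, from ZNF628 to ZNF446, 32 of 51 genes were higher and the median was 0.05, and it was -0.02 without knockdown clone 3.

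**Figure D2:**
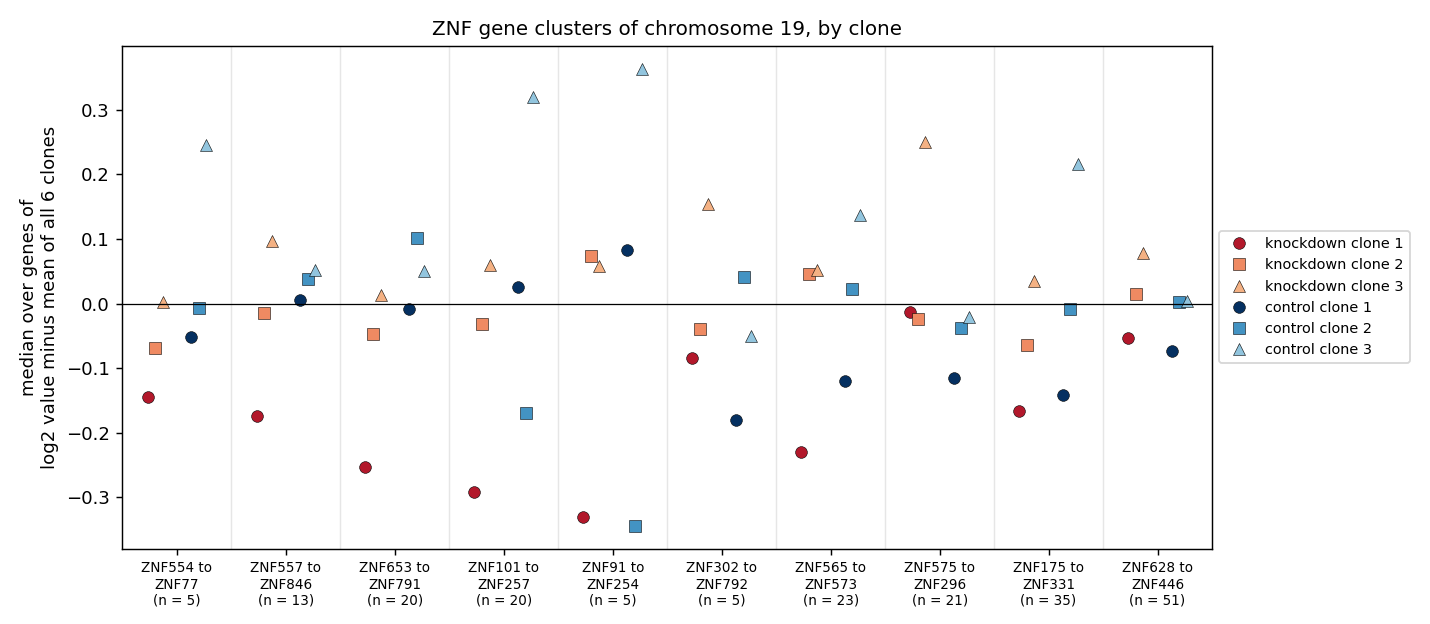
For each of the 10 clusters with 5 or more ZNF genes, the median over its genes of the log2 value minus the mean of all 6 clones (vertical axis), with 1 point per clone, knockdown left and control right. In the ZNF101 to ZNF257 and ZNF91 to ZNF254 clusters control clone 3 is at 0.32 and 0.36, and control clone 2 and knockdown clone 1 lie lowest.

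Clones of the same group differed far more in some ZNF genes than the groups did. The 3 control clones spanned at least 2-fold in 18 of the 207 genes (8.7%, against 1.22% of all genes), in 1 of 205 ZNF genes of other chromosomes (0.488%) and in 6 of 1007 other genes of chromosome 19 (0.596%). The 3 knockdown clones spanned at least 2-fold in 12 (5.8%, against 1.83% of all genes), in 0 of the 205 and in 8 of the 1007 (0.794%). Both counts rest on single clones. Without control clone 3 the controls spanned 2-fold in 4 genes (1.93%, against 0.605% of all genes), and without knockdown clone 1 the knockdown clones did in 0 (0.239% of all genes). These counts describe single arrays, and no test was made of them. ZNF genes of one cluster are close in sequence, so which member a feature measures is partly uncertain, and this was not tested.

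The wide spans were grouped on the chromosome. Of the 25 genes from ZNF101 to ZNF254, in the 2 clusters nearest the centromere on the short arm (19668153 to 22091480 and 23305004 to 24129968), 11 spanned at least 2-fold in the controls (44%), against 7 of the 182 others (3.85%). These 2 clusters were singled out after the values were seen, so the contrast with the others is a description and no test. Without control clone 3 the counts were 4 of the 25 and 0 of the others, without control clone 2 they were 7 and 7, and without control clone 1 they were 10 and 3. Of the 7 with all controls in, 5 lay in the cluster from ZNF175 to ZNF331 (51571283 to 53580269). Over 188 pairs of neighbouring ZNF genes of a cluster, the shift of control clone 3 from the other controls correlated at 0.471 and that of knockdown clone 1 from the other knockdown clones at 0.28. These correlations are across genes measured on the same arrays and serve as a description.

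ZNF91, which silences SVA retrotransposons, had the widest span within the knockdown clones. Its log2 values (feature 8035842) were 6.06, 9.03 and 9.05 in knockdown clones 1, 2 and 3, against 8.70, 6.72 and 8.53 in control clones 1, 2 and 3. Low values thus occurred once in each group. Knockdown clone 1 was 7.89-fold below the mean of the other knockdown clones and control clone 2 was 3.72-fold below the other controls, while the group means, 8.05 ± 1.72 and 7.98 ± 1.10 (mean ± SD, n = 3 each), differed by 0.06 (SE 0.87, adjusted p = 0.99). Its neighbour ZNF675 had 4.71, 5.87 and 5.75 in the knockdown clones, against 6.32, 5.04 and 7.08 in the controls. The same 2 clones were lowest in their groups there, by 2.14-fold and 3.16-fold.

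The same pair of clones was low in other genes of the stretch. Knockdown clone 1 was at least 2-fold below both other knockdown clones in 5 ZNF genes (2.42%, against 0.551% of all genes) and above them in 0 (0.174% of all genes). Control clone 2 was at least 2-fold below both other controls in 4 (1.93%, against 0.0299% of all genes). ZNF91, ZNF675 and ZNF253 are on both lists. ZNF253 had 4.71, 6.16 and 6.71 in the knockdown clones, against 6.19, 4.97 and 6.98 in the controls. ZNF626 had 5.98, 6.76 and 7.28 in the knockdown clones, against 6.78, 4.39 and 8.10 in the controls, so that control clones 2 and 3 differed by 3.71 log2 units. The second feature of ZNF626 was dimmer and spanned less, with 4.23, 4.42 and 4.97 in the knockdown clones and 4.46, 3.96 and 4.55 in the controls, in the same order within each group. Knockdown clone 1 and control clone 2 were both the lowest of their groups in 12 of the 25 genes (48%), against 18 of the 182 others (9.89%) and 11.6% of all genes. Both the stretch and the pair of clones were picked from these values, so this contrast too is a description. Across the 207 genes the deviations of these 2 clones from their group means correlated at 0.437, and across all genes at 0.218, as a description.

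Control clone 3 stood out in the opposite direction. It was at least 2-fold above both other controls in 9 ZNF genes (4.35%, against 0.204% of all genes), namely ZNF506, ZNF93, ZNF626, ZNF85, ZNF429, ZNF43, ZNF528, ZNF320 and ZNF160. ZNF93, which silences LINE-1 retrotransposons, had 4.81, 4.98 and 5.36 in the knockdown clones, against 5.02, 4.31 and 6.98 in the controls, which put control clone 3 4.97-fold above the mean of the other controls. ZNF320 had 4.44, 4.92 and 4.84 in the knockdown clones, against 4.65, 4.88 and 6.81 in the controls, a 4.14-fold distance for control clone 3. In both genes control clone 3 was the highest of all 6 clones. ZNF85 was 3.10-fold above the other controls in this clone, and ZNF43, a dim gene, 3.38-fold.

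**Figure D3:**
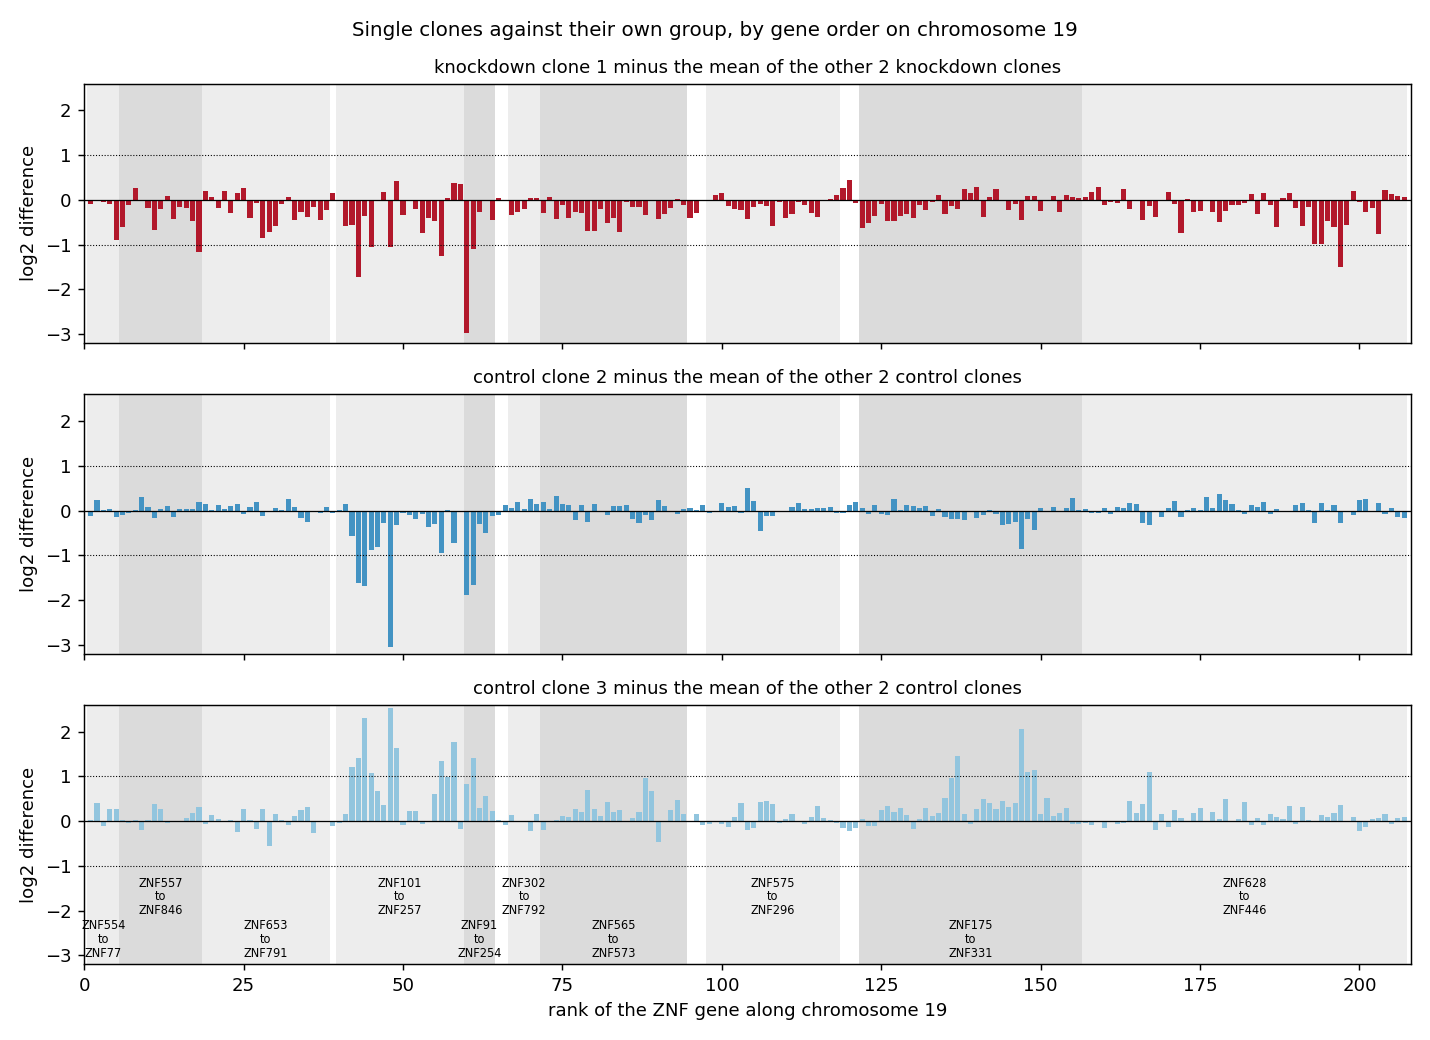
Each bar is the log2 difference of 1 clone from the mean of the other 2 clones of its group (vertical axis) for 1 ZNF gene, in the order of the 207 genes on chromosome 19 (horizontal axis). Grey bands mark clusters of 5 or more genes and dotted lines a 2-fold difference. Knockdown clone 1 and control clone 2 share low values around ZNF91, where control clone 3 has a run of high ones, and control clone 3 has a further run of high values in the ZNF175 to ZNF331 cluster.

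In the cluster from ZNF175 to ZNF331 the high values of control clone 3 came in 2 short runs of neighbours. ZNF880 and ZNF528 lie side by side, and ZNF320, ZNF816 and ZNF160 follow in order further along. ZNF880 had 5.07, 5.24 and 5.16 in the knockdown clones, against 5.23, 5.64 and 6.40 in the controls. ZNF160 had 4.35, 4.23 and 4.29 in the knockdown clones, against 4.28, 4.44 and 5.49 in the controls. In both, control clone 3 was the highest of all 6 and the knockdown clones lay close together. The 14 other measured genes within this cluster had a median shift of 0.02 in control clone 3 from the other controls, against 0.26 for the 35 ZNF genes. In the cluster from ZNF565 to ZNF573 the 5 other genes had 0.51, against 0.20 for the ZNF genes. Zinc finger genes not named ZNF with a number were not separated from these other genes. The 1 other gene from ZNF101 to ZNF257 had 0.28 (ZNF genes 0.64), and that from ZNF91 to ZNF254 had 0.56 (ZNF genes 0.56). In the remaining clusters of 5 or more that held other genes, their median lay between -0.05 and 0.03. ZNF256, near the long-arm end of the chromosome, was low in knockdown clone 1 alone, with 4.71, 6.09 and 6.33 in the knockdown clones, against 6.07, 5.95 and 6.38 in the controls.

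**Figure D4:**
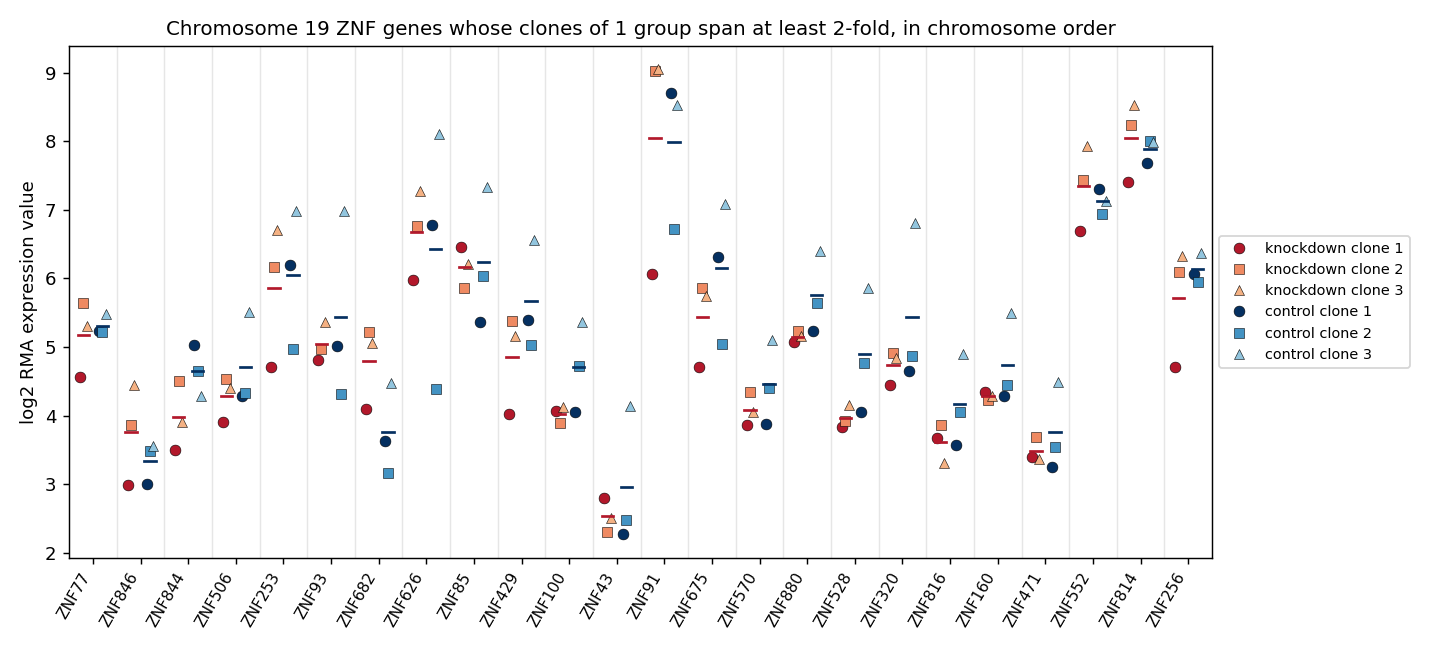
Log2 expression (vertical axis) in each clone for the 24 ZNF genes whose control or knockdown clones span at least 2-fold, in chromosome order. Points are single clones, knockdown left and control right, and bars are means of 3. ZNF91 is low in knockdown clone 1 (6.06) and control clone 2 (6.72), and from ZNF506 to ZNF675 and from ZNF880 to ZNF160 control clone 3 is the highest control in all but ZNF91.

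Promoters of 5 genes that varied widely between clones are shown, with that of ZNF254. This neighbour of ZNF91 spanned under 2-fold within each group. The promoters are shown for their CpGs, the dinucleotide whose methylated form MBD2 binds. Sequences are from RefSeq (GRCh38.p14), 250 bases before to 50 after an annotated start, 5′ to 3′ on the gene's strand, with every CpG in capitals. ZNF91 (chr19:23395422-23395721, minus strand) and ZNF254 (chr19:24086937-24087236, plus strand) are the 2 ends of 1 cluster, and ZNF626 (chr19:20661522-20661821, minus strand) and ZNF93 (chr19:19900696-19900995, plus strand) lie in the neighbouring one. ZNF320 (chr19:52897645-52897944, minus strand) and ZNF528 (chr19:52397599-52397898, plus strand) are from the ZNF175 to ZNF331 cluster. The start used lies 53738 bases inside the outermost start of ZNF254 and 6626 bases inside that of ZNF320, and in the others shown it is the outermost.
ZNF626: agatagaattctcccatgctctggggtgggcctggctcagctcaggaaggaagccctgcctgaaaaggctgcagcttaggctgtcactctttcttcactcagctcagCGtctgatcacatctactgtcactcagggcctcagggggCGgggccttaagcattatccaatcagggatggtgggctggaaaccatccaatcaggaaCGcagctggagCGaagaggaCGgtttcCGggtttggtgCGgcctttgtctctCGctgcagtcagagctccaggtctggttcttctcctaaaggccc
ZNF91: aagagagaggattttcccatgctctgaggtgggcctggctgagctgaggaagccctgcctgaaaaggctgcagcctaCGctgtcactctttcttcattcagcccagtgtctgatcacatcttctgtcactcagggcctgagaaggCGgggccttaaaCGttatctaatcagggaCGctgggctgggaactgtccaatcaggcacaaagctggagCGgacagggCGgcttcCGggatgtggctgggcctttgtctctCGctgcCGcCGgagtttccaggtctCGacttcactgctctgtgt
ZNF254: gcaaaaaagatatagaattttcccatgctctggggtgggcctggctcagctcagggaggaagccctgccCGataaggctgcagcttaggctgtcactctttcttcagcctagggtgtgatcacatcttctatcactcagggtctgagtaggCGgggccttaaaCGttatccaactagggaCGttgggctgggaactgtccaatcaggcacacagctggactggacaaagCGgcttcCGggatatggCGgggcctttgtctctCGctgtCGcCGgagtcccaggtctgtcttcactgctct
ZNF93: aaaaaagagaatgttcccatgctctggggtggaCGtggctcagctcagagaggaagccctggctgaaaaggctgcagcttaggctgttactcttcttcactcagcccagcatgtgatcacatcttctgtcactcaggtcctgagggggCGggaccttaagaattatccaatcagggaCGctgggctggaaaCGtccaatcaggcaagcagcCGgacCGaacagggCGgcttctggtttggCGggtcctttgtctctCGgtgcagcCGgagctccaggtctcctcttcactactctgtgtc
ZNF320: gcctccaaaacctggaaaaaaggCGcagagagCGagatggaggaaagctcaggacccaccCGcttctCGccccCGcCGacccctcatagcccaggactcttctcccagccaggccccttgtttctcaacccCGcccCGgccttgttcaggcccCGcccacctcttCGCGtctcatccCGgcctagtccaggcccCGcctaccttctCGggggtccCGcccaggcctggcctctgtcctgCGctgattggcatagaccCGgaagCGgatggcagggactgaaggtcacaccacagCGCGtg
ZNF528: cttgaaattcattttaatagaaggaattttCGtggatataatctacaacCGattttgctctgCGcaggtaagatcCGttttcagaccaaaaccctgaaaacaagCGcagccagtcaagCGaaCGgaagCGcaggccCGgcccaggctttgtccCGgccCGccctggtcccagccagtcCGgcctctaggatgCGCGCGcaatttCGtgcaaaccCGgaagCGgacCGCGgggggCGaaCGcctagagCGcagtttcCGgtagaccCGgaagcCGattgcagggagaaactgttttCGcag

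These windows hold 8 CpGs in ZNF626, 11 in ZNF91, 10 in ZNF254 and 10 in ZNF93, against 20 in ZNF320 and 27 in ZNF528. ZNF91 and ZNF254 match at 87% of 300 aligned bases. ZNF254 had 7.78, 8.03 and 8.43 in the knockdown clones and 8.07, 8.06 and 8.29 in the controls. Its ranges were 0.65 and 0.23 log2 units, under 2-fold in each group. Knockdown clone 1 and control clone 2 were the lowest of their groups in both genes. Of the 207 genes 184 had a promoter in the table, with a median of 21 CpGs, and in 145 of them the start used was the gene's outermost. In all 13351 genes had one, with a median of 23. A count of 20 or more was found in 57.1% of the ZNF promoters and 59.4% of all promoters. The 15 ZNF genes with a promoter whose controls spanned at least 2-fold had a median of 11 CpGs, against 21 in the 169 others. Under 10 CpGs were found in 26.7% of these 15, against 4.73% of the 169 others and 24.15% of all promoters. From ZNF101 to ZNF254 the median was 10 CpGs both in the 9 genes with a promoter whose controls spanned at least 2-fold and in the 13 whose controls did not. In the cluster from ZNF175 to ZNF331 these medians were 25 for 5 genes and 24.5 for 24. Variable and steady genes thus differed in CpG count over all clusters, while within each of these 2 stretches their medians were close. Across the 184 promoters CpG count correlated at -0.27 (rho -0.19) with the range over control clones and at 0.02 with the log2 fold change, as a description over genes that share sequence and arrays. For 42 of the 184 genes the most similar promoter of another member matched at 80% or more over at least 100 aligned bases, and for 39 of these it lay in the same cluster.

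Among ZNF genes of chromosome 19 often methylated in cancer, none passed the threshold. Of 12 measured, 8 had higher and 4 lower means, where 51.3% of all genes had lower means. The median log2 fold change was 0.13, against -0.004 over all genes, and 0 of the 12 had an unadjusted p under 0.05. This median was not computed with single clones left out. ZNF671 had 4.70, 4.85 and 4.90 in the knockdown clones, against 4.58, 4.71 and 4.59 in the controls, with overlapping groups (log2 fold change 0.19, adjusted p = 0.563). ZNF677 had 2.35, 2.65 and 2.59, against 2.21, 2.28 and 2.42 in the controls, at a dim signal (log2 fold change 0.23, adjusted p = 0.575). The list's log2 fold changes ran from -0.15 to 0.24, and none of its genes spanned 2-fold among the controls.

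Of the 4 measured genes whose proteins bind transposable elements, ZNF91 and ZNF93 are described above. ZNF649 had 7.30, 7.52 and 7.78 in the knockdown clones, against 7.28, 7.36 and 7.21 in the controls (log2 fold change 0.25, adjusted p = 0.603, and 0.13 without knockdown clone 3). ZNF808 had 8.47, 8.12 and 8.25 in the knockdown clones, against 8.46, 8.42 and 8.70 in the controls (log2 fold change -0.25, adjusted p = 0.586, and -0.16 without control clone 3). In both genes the groups overlapped.

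The list drawn up for KRAB zinc finger proteins held TRIM28, SETDB1 and other heterochromatin and chromatin assembly genes, and all 20 were measured. None passed the threshold (0 of 20 in limma), and 2 had an unadjusted p under 0.05, both lower (5.45% of all genes were). The list's median log2 fold change was -0.04, against -0.004 over all genes. These 2 genes encode histone H3 lysine methyltransferases of heterochromatin. SUV39H1 had 7.26, 6.97 and 6.82 in the knockdown clones, against 7.61, 7.55 and 7.23 in the controls, where control clone 3 lay just below knockdown clone 1 (log2 fold change -0.45, adjusted p = 0.404). SUV39H2 had 6.53, 6.52 and 6.43 in the knockdown clones, against 6.85, 6.77 and 6.68 in the controls, without overlap (log2 fold change -0.28, adjusted p = 0.385). TRIM28 itself had 9.66, 9.31 and 9.51 in the knockdown clones, against 9.61, 9.60 and 9.62 in the controls, a log2 fold change of -0.11. SETDB1 had 7.18, 7.51 and 7.53, against 7.56, 7.36 and 7.46 in the controls. In TRIM28 the control clones lay close together, and in SETDB1 knockdown clone 1 was the lowest of all 6.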

How the data were processed

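The authors deposited 1 log2 value per feature and array. RMA, oligo and limma were their tools, per the submitters' processing notes; no version or filter is stated. The log2 scale was read from the range of the values. Of 19712 features, 17334 are paired with 1 gene symbol by the platform annotation; a gene with several was represented by its brightest, leaving 16704 genes. Gene positions come from RefSeq (GRCh38.p14).

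Knockdown was compared with control by limma 3.58.1 in R 4.3.3 (lmFit and eBayes), with p adjusted by Benjamini-Hochberg over all genes and a threshold of 0.05. The fit was tested on simulated data. Fold changes give knockdown over control on the log2 scale. The members and lists were chosen with earlier results of these data known. Genes were named by a rule: up to 12 per direction with the smallest p among non-overlapping ones, the 5 brightest, those at least 2-fold apart, the 4 with the largest gap between knockdown clone 1 and the others, and the 2 with the smallest p per cluster and per list. Other genes named, including those of the spans over clones, were chosen after their values were seen, as was the stretch from ZNF101 to ZNF254. Promoters were taken at the first start the table lists and aligned locally with Biopython 1.88 (match 1, mismatch -1, gap -3 and -1). Protein sequences were not used here, so KRAB domains were not assigned by gene. Of the genes listed, 2 of 14 methylated in cancer, 1 of 5 element binders and several luminal markers were not analysed here.

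Alternatives were median centring, repeated quantile normalization or cyclic loess, dropping the dimmest 30% of genes, trend and robust variance, array weights, a block on replicate number, averaging a gene's features, averaging knockdown clones 2 and 3 (the most alike arrays, at a correlation of 0.996 over all genes), a gap of 0.5 Mb and leaving out each clone. Leaving out clones for the cluster medians and the counts of spans was added after seeing the data. The number of arrays limits the precision. The series' design text calls the 3 samples of each group stably transfected clones, and differences between clones are part of every error given.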

Additional observations from a re-analysis of the deposited data

How the results depend on the processing

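The number of ZNF genes past the adjusted threshold was 0 in every alternative except array weights, where it was 1 (ZNF823, log2 fold change -0.39, adjusted p = 0.044), with 325 of all 16704 genes passing; 70 of all genes passed without knockdown clone 1 and 7 without control clone 1. The weights gave knockdown clone 1 0.252. Without the dimmest 30% of genes 8 of 144 members were lower at an unadjusted p under 0.05 (5.56%, against 7.11% of all genes). The count lower was 17 with array weights (8.21%, against 11.6% of all genes). When single clones were left out it was 8 to 19 (3.86% to 9.18%, against 3.6% to 9.12% of all genes). The count higher was 8 after quantile normalization (3.86%, against 4.42% of all genes) and 7 after cyclic loess (3.38%, against 4.42%). It was 2 without the dimmest genes (1.39%, against 4.03%) and 16 with array weights (7.73%, against 8.3%). With knockdown clones 2 and 3 averaged it was 2 (0.966%, against 2.89%). When single clones were left out it was 2 to 26 (0.966% to 12.6%, against 2.8% to 6.87% of all genes). With the replicate number as a block 9 were higher (4.35%, against 3.96% of all genes) and 19 lower (9.18%, against 5.48%), and 0 passed. Deviations of same-numbered clones correlated across all genes at -0.03, -0.19 and 0.17, and those of clones with other numbers at -0.17 to 0.22. The numbers are therefore not taken as pairs. The median log2 fold change over the ZNF genes stayed between -0.07 and 0.02. MBD2 had -1.445 to -1.187 when single clones were left out. Its adjusted p was 0.0179 when control clone 1 was dropped and 0.0498 when knockdown clone 1 was. Spans of at least 2-fold were counted under alternatives chosen after seeing the data. In the controls the count was 9 without the dimmest genes (6.25% of 144, against 1.34% of all genes). It was 4 to 14 when a control clone was left out (1.93% to 6.76%, against 0.455% to 0.784% of all genes). In the knockdown clones it was 0 to 9 when a knockdown clone was left out (0% to 4.35%, against 0.239% to 1.53% of all genes). Of 573 alternative values of the 39 named genes, 561 kept direction and side of the threshold and 11 changed sign, none of them past it. ZNF358 had 0.00085 after quantile normalization and 0.0040 after cyclic loess. ZNF91 had -0.43 with clones 2 and 3 averaged and -0.57 to 1.06 when single clones were left out. ZNF253 had 0.32 with array weights and -0.73 to 0.39, ZNF256 -0.73 to 0.078 and ZNF302 -0.022 to 0.29 when single clones were left out. No gene of the list with TRIM28 and SETDB1 passed when any single clone was left out. After splitting at 0.5 Mb, the largest piece of each cluster of 5 or more had a median between -0.16 and 0.15. Medians of the smaller pieces were not computed. The causes of these shifts were not tested.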
